A study of Mus musculus with 17 samples.

Results

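The comparison described here set CD4+ T cells that had become Foxp3+ in culture with dendritic cells (DC) of the intestinal lamina propria (LP) against CD4+ T cells that had become Foxp3+ with spleen (Sp) DC and added retinoic acid (RA). It was made on 4 of the 17 arrays of the series, 2 titled LPFoxp3+ and 2 titled SpRAFoxp3+, chosen by their titles, with same-numbered arrays taken as pairs. The T cells of all 4 arrays came from the spleens of C57BL/6-Foxp3/GFP mice, a strain in which green fluorescent protein reports Foxp3, aged 6 to 10 weeks, with 3 male mice pooled per array. Cells that were CD4+Foxp3- at the start were cultured for 5 days at 10 T cells per DC with anti-CD3 at 1 ug/ml, TGF-beta at 0.6 ng/ml and IL-2 at 5 ng/ml. Only the spleen DC cultures of this comparison received RA, at 100 nM, so that the source of the DC and the added RA differ together between the groups. Cells were then sorted as CD4+ Foxp3/GFP+. The same protocol gave 2 SpFoxp3+ arrays (spleen DC, no RA) and the Foxp3- sort of each culture, which are used below as levels or as a parallel comparison. A separate set of 6 arrays held CD44hi memory CD4+ cells of C57BL/6 mice, also aged 6 to 10 weeks and with 3 mice pooled per array. They were activated for 48 h with TGF-beta at 10 ng/ml, a higher dose than in the co-cultures, without or with RA at 100 nM.

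RA is made from vitamin A by retinal dehydrogenases, which intestinal DC of the CD103+ kind express, and it acts through nuclear receptors (RAR paired with RXR) that bind paired copies of a short hexamer in DNA. In T cells it is known to induce the gut-homing receptors CCR9 and alpha4beta7 integrin and, with TGF-beta, to favour Foxp3. Its level in a cell is held down by target genes that degrade or reduce retinoids, among them the Cyp26 enzymes. Lamina propria DC are used in such cultures as a natural source of RA, and spleen DC with added RA as a substitute.

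Values are log2 of the deposited RMA intensities, and array medians lay between 5.88 and 5.98. After 1 probe set was taken for each of 18194 genes, 11846 genes above the array median on at least 2 of the 11 co-culture arrays were tested. The Foxp3 probe set read 4.38 and 4.27 on the LP arrays and 4.28 and 4.09 on the SpRA arrays, below the median and no higher than the 3.88 to 4.44 on the Foxp3- arrays. On the memory arrays of wild-type mice it read 7.08 to 9.14, so in the reporter strain this probe set does not check the sort. One label field of 3 of the 4 arrays names Foxp3- cells where the title and the sort field give Foxp3+, and the titles were followed. The second SpRA array of the Foxp3+ sort correlated at r = 0.99 over tested genes with the same-numbered SpRA Foxp3- array. With the first SpRA array of the Foxp3+ sort r was 0.96. The arrays SpFoxp3+ 1 and SpFoxp3+ 2 also had higher r with their same-numbered Foxp3- array (0.984 and 0.986) than with each other (0.972). LPFoxp3+ 1 and LPFoxp3+ 2 had 0.975 and 0.981 with theirs, and 0.979 with each other. Between the compared cultures, r was 0.982 for the Foxp3+ arrays numbered 1 and 0.972 for those numbered 2. Both values are above the 0.964 between the 2 SpRA arrays, and the first is also above the 0.979 between the LP arrays. The array SpFoxp3+ 2, which is not compared but enters the fit, stood apart in some genes, as given beside them. Nothing in the labels says that the arrays came from separate experiments, so p-values measure a spread between arrays only. Where the array number is in the model, this is the spread left over the 11 co-culture arrays after group and array number are accounted for.

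With the array number in the model, 132 genes were higher in LP-DC cultures, 1.11% of those tested, and 90 were lower, 0.76% (limma, Benjamini-Hochberg adjusted p under 0.05, here termed called). Of these, 63 and 52 differed at least 2-fold. The 2 LP arrays lay wholly above or below the 2 SpRA arrays for 117 and 89 of them, where 28.2% of all tested genes did not overlap either. Without the array number, 4 genes were higher (0.0338%) and 7 lower (0.0591%), and all 11 were among the 222. The 4 were Ifitm3, Ifitm1, Il6ra and Efna5, and the 7 were Ccr9, Cyp26b1, Gda, Cracdl, Csn2, Asb2 and Grtp1. No other gene below passed without the array number. The count fell to 45 without LPFoxp3+ 2, 92 without SpRAFoxp3+ 1 and 52 without SpRAFoxp3+ 2, and was 198 without LPFoxp3+ 1. A core of 31 genes was called in each of those 4 fits, and its members are termed stable below; of the 55 genes named by rule and called, 17 were stable and 12 were called in none of the 4.

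**Figure D1:**
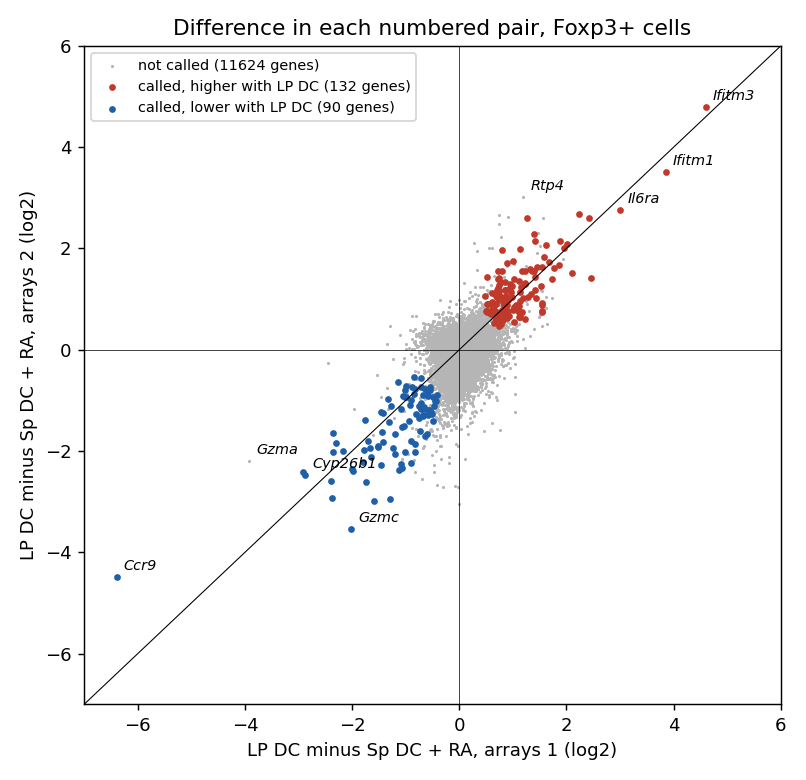
Each point is 1 of 11846 genes, placed by its log2 difference between LP-DC and Sp-DC plus RA cultures in the arrays numbered 1 (x axis) and in those numbered 2 (y axis), Foxp3+ cells. The 132 genes called higher (red) and 90 called lower (blue) lie along the line of equal differences, with Ifitm3 and Ccr9 at the ends.

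Ccr9 had the largest difference of the 222 called genes. Ccr9, the chemokine receptor for CCL25 that guides T cells to the small intestine, read 3.99 and 3.79 on the LP arrays, 10.39 and 8.27 on the SpRA arrays and 4.16 and 3.91 on the SpFoxp3+ arrays. Its LP level was thus that of spleen DC without RA, far under either SpRA array. The difference was -5.44 (SE 0.40, adjusted p = 0.000239). That is at least 43.5-fold, as both LP arrays are over 1 log2 unit below their array median, and its 4 other probe sets pointed the same way. Lztfl1, the neighbour of Ccr9 on chromosome 9, whose product regulates protein traffic to cilia, read 8.12 and 7.59 with LP-DC and 10.12 and 9.95 with RA, a difference of -2.18 (SE 0.13).

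Cyp26b1, which degrades RA, read 6.43 and 6.54 with LP-DC and 9.31 and 9.02 with spleen DC plus RA. Both LP arrays were at the level of spleen DC alone (6.40 and 6.50). The difference was -2.68 (SE 0.14), 6.39-fold, with adjusted p = 6.45e-05. Dhrs3, which reduces retinal to retinol, read 7.38 and 7.05 with LP-DC against 8.84 and 9.33. It was lower by 3.65-fold (difference -1.87, SE 0.21, adjusted p = 0.0026), and its levels with spleen DC alone were 6.96 and 6.49. All 4 genes, Ccr9, Lztfl1, Cyp26b1 and Dhrs3, were stable.

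Most other retinoid genes were not called. Of 15 tested genes for retinoid enzymes, receptors and binding proteins, 0 were higher and 2 lower (Cyp26b1 and Dhrs3). The median difference of the 15 was 0.02 against 0.01 over all genes, of which 1.11% were higher and 0.76% lower. Rarg, an RA receptor, read 8.55 and 8.28 with LP-DC against 7.87 and 7.86 (adjusted p = 0.0712). Rarb, a receptor gene that carries a classical RA response element, read 6.46 and 6.12 against 7.04 and 5.78 (difference -0.13, SE 0.20, adjusted p = 0.855), so that its groups overlapped. The response element is seen in the RefSeq promoter of Rarb (GRCm38.p6), where capitals mark a DR5, that is 2 copies of a receptor-binding hexamer in the same direction with 5 bases between them. The hexamer was taken as AGGTCA, with AGTTCA as a variant, GGGTCA as another and GGTTCA as the last.
Rarb, chr14:16575427-16575726, minus strand: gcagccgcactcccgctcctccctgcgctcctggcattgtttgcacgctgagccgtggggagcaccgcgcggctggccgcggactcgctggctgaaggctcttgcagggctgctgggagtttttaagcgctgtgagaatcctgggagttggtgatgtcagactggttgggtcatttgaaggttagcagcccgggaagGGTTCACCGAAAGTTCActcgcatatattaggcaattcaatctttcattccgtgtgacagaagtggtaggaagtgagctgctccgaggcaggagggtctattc
Among promoters reaching 250 bases before and 50 after the start, on both strands, a DR5 occurred in 32 of 32851 (0.0974%) and a DR2, with 2 bases between hexamers, in 88 (0.268%). None of the 182 called genes with a promoter in the table held a DR5 or a DR2 in this window. A single hexamer occurred in 41.9% of the higher genes, 46.8% of the lower genes and 42.1% of the tested genes with a promoter.

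**Figure D2:**
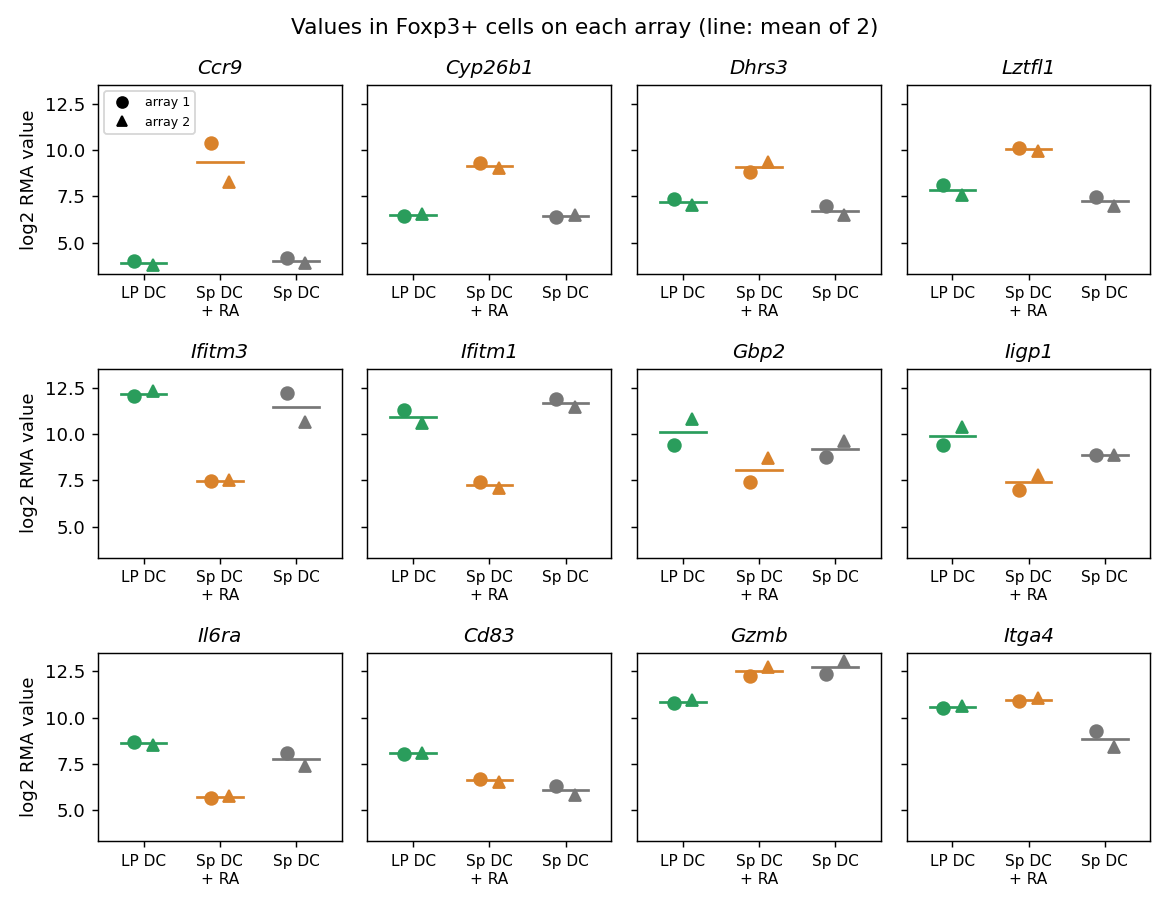
Log2 RMA values of 12 genes in Foxp3+ cells, on each array (circle for array 1, triangle for array 2, line for the mean of 2), for LP-DC, Sp-DC plus RA and Sp-DC cultures. Ccr9, Cyp26b1, Dhrs3 and Lztfl1 are high only in the RA culture among these 3, Ifitm3 and Ifitm1 are low there, and Itga4 is near 11 with both LP-DC and RA.

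The memory cell arrays, none of which entered the comparison, gave an outside definition of RA response. In them 64 genes were at least 2-fold higher with RA in each of 3 numbered pairs, and 56 were at least 2-fold lower. Of the 59 genes of the first kind that were tested, 13 were lower with LP-DC and 0 higher, that is 22% lower against 0.639% of the 11740 genes with neither response. Their median difference was -0.34, and 41 of the 59 lay below 0. These 13 were Ccr9, Cyp26b1, Lztfl1, Plac8, Dhrs3, AA467197, Sh3gl3, Fos, Fam102b, Enpp4, Fgl2, Gfi1 and Hic1. The lower count was 2 without the array number, 8 without LPFoxp3+ 1, 5 without LPFoxp3+ 2, 8 without SpRAFoxp3+ 1 and 6 without SpRAFoxp3+ 2. Plac8, Fos, Fgl2, Gfi1 and Hic1 were called in none of the 4 fits with an array left out. Gfi1, a transcriptional repressor of T cell differentiation, was higher with RA in memory cells by 3.06 on the log2 scale. It read 8.88 and 8.63 with LP-DC and 9.69 and 9.89 with spleen DC plus RA (difference -1.04, SE 0.22, adjusted p = 0.0455). Hic1, a repressor known as an RA-responsive gene of intestinal T cells, read 6.44 and 6.45 against 7.20 and 7.57 (difference -0.94, SE 0.17, adjusted p = 0.0326). The genes that were lower with RA in memory cells went both ways. Of 47 tested, Ifitm3, Efna5 and Ly75 were higher with LP-DC, and Selenbp1 and Jcad were lower.

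**Figure D3:**
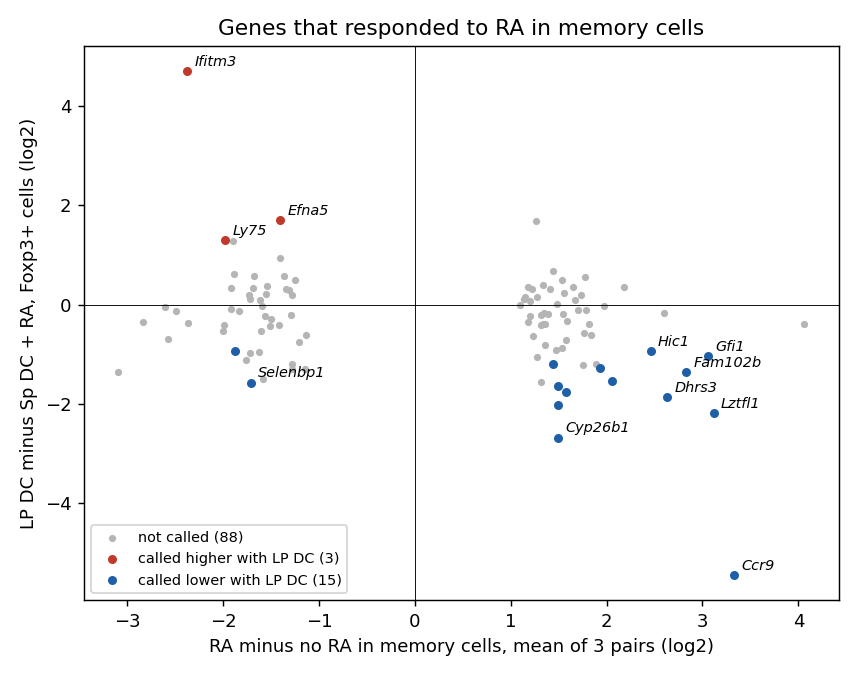
Each point is a gene that changed at least 2-fold in all 3 memory cell pairs and was tested here. The x axis is its mean log2 response to RA in memory cells and the y axis its log2 difference between LP-DC and Sp-DC plus RA cultures in Foxp3+ cells; of the genes on the right, 13 are called lower (blue) and 0 higher, with Ccr9 lowest.

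Not every gut-homing or RA-linked gene differed. Itga4, the alpha4 chain of the integrin that pairs with beta7 for entry into the gut, read 10.55 and 10.62 with LP-DC and 10.90 and 11.06 with RA. Both groups were above spleen DC alone (9.29 and 8.44), and the difference between them was -0.39 (95% interval -0.99 to 0.20, adjusted p = 0.576). Itgb7, the beta7 chain, read 10.41 and 10.40 against 10.16 and 10.51 (interval -0.33 to 0.47). Itgae, which encodes CD103, read 11.38 and 10.65 against 10.93 and 10.16 (interval -0.83 to 1.79). On SpFoxp3+ 2, whose spread enters the fit, Itgae read 7.37 against 10.46 on SpFoxp3+ 1. Nrp1, a co-receptor of semaphorins and TGF-beta, had the same pattern, with 11.74 and 11.18 against 11.37 and 10.52, and 7.25 on SpFoxp3+ 2.

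Over 34 tested genes for homing receptors, integrins and adhesion, 5 were higher, 1 (Ccr9) lower and 28 not called, with a median of 0.10. The share over all tested genes was 1.11% higher and 0.76% lower. S1pr1, the receptor by which T cells leave lymphoid tissue, read 9.24 and 9.09 with LP-DC against 8.23 and 8.24 (difference 0.93, SE 0.17, adjusted p = 0.0286). Fut7, the fucosyltransferase that makes selectin ligands, read 6.80 and 6.94 against 5.78 and 6.14 (adjusted p = 0.045). Icam1, Itga6 and Gpr18 were higher by 0.87, 0.76 and 0.72. None of these 5 was stable, and the list's higher count was 1 without LPFoxp3+ 1 and 0 without any other of the 4 arrays. Gpr15, the receptor that takes T cells to the large intestine, read 7.10 and 6.68 with LP-DC, 5.63 and 4.38 with RA, and 7.39 and 6.89 with spleen DC alone. Its groups did not overlap, but the difference of 1.89 (SE 0.55) did not pass (adjusted p = 0.137).

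Genes known to be induced by interferons had the most higher genes of the 28 lists examined. Over all 11846 tested genes, 1.11% were higher and 0.76% lower, and 6113 lay above 0. Of 36 tested interferon genes, 10 were higher with LP-DC and 1, Irf8, was lower. Their median difference was 0.63, and 33 of the 36 lay above 0. The higher count was 13 without LPFoxp3+ 1, 6 without LPFoxp3+ 2, 6 without SpRAFoxp3+ 1 and 5 without SpRAFoxp3+ 2, and 2 without the array number. Ifitm3, a membrane protein that blocks viral entry, read 12.04 and 12.29 on the LP arrays and 7.43 and 7.49 on the SpRA arrays, with 12.20 and 10.66 on the SpFoxp3+ arrays. The SpRA arrays thus stood alone at the low end. The difference of 4.70 (SE 0.53, adjusted p = 0.00256) was 26.0-fold, and its adjusted p was 0.0644 without SpRAFoxp3+ 2. Ifitm1 read 11.27 and 10.57 against 7.42 and 7.07, with 11.87 and 11.48 on the SpFoxp3+ arrays, a stable difference of 3.68 (SE 0.23, adjusted p = 9.29e-05). Ifitm2 read 10.75 and 10.73 against 8.29 and 9.32 (difference 1.94, adjusted p = 0.0166), and it was not called without any 1 of the 4 arrays. The 3 genes lie next to each other on chromosome 7, and 3 of 5 tested Ifitm genes were higher.

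The guanylate-binding proteins and immunity-related GTPases, interferon-gamma-induced enzymes that act on the vacuoles of intracellular microbes, formed a second block. Of 6 tested guanylate-binding proteins 4 were higher, and of 7 immunity-related GTPases 5 were higher, with 0 lower in either family. The share over all tested genes was 1.11% higher and 0.76% lower, and the families were grouped after their values were seen. Gbp2 read 9.40 and 10.81 with LP-DC against 7.39 and 8.72, so that the second array of each culture was the higher one while the differences of the pairs were alike. Its difference was 2.05 (SE 0.16, adjusted p = 0.000348), but 0.668 was its adjusted p without the array number. Iigp1 read 9.41 and 10.38 against 6.99 and 7.78 (difference 2.51, SE 0.22, adjusted p = 0.000615). Gbp6 read 10.03 and 11.32 against 8.16 and 9.17, and Gbp3 read 10.62 and 11.78 against 9.23 and 10.22. These 4 GTPases were stable. Igtp, Irgm1, Irgm2 and Gbp7 were higher by 0.84, 0.88, 1.01 and 0.78.

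Promoters of 4 of these GTPase genes are shown because the genes moved together (RefSeq, GRCm38.p6), and all 4 hold the motif marked. Capitals mark GAAANNGAA on either strand, the core of the interferon-stimulated response element, a motif chosen after the values were seen.
Gbp2, chr3:142620413-142620712, plus strand: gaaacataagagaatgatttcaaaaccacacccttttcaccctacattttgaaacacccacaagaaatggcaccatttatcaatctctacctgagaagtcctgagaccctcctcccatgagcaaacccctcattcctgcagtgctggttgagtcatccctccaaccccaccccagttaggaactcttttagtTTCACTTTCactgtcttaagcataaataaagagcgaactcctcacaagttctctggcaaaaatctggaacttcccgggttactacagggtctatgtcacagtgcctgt
Gbp3, chr3:142559794-142560093, plus strand: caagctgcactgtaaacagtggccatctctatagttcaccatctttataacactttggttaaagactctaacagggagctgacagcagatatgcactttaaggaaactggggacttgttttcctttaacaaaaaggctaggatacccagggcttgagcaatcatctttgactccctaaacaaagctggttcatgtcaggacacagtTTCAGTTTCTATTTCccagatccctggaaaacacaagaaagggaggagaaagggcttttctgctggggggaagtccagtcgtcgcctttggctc
Igtp, chr11:58199306-58199605, plus strand: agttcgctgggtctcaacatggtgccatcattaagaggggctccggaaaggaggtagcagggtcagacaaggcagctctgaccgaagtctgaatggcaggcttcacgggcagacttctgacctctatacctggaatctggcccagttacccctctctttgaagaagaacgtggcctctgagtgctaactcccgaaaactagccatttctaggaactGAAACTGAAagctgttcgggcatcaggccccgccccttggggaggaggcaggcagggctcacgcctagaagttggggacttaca
Irgm1, chr11:48871371-48871670, minus strand: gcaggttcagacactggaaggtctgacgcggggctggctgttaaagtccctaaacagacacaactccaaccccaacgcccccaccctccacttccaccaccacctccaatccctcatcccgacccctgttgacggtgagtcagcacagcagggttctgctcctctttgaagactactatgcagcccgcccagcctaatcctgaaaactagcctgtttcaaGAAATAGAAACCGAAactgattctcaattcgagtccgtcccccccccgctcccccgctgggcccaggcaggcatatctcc
The match lies 58 bases before the start in Gbp2 and 34 in Igtp, while Gbp3 and Irgm1 hold 2 overlapping matches each. Another Gbp3 promoter held no match to this motif. Gbp7 and Irgm2, not shown, also held a match. For Gbp6, Iigp1 and Gm4951, GTPase genes that were also higher, no match was recorded. Whether they lacked a match or a promoter to search is not given here. A motif common to the block was thus not shown. Of the higher genes with a promoter in the table, 19 of 105 (18.1%) held a match, against 4 of 77 lower genes (5.19%) and 815 of 9594 tested genes (8.49%). Over all 27025 genes with a promoter in the table the share was 9.76%. The motif TTCNNNGAA, the core of the gamma-activated site, occurred in 10.5% of the higher, 10.4% of the lower and 8.32% of the tested genes. A match describes letters in this window only.

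Several interferon genes that were not called had far-apart LP arrays. Rtp4, a chaperone of receptors, read 8.37 and 10.44 with LP-DC against 7.18 and 7.42, and Usp18, a brake on type I interferon signalling, read 6.92 and 8.95 against 6.19 and 6.29. Ifit1 read 5.28 and 7.16 against 5.01 and 5.05. In each of these 3 the array LPFoxp3+ 2 was far above LPFoxp3+ 1, and none was called (adjusted p = 0.128, 0.0823 and 0.326). Ifit2, of the same family as Ifit1, read 7.88 and 8.15 against 7.77 and 7.65 (adjusted p = 0.542), with no such gap. Without LPFoxp3+ 2 the median of the whole list was 0.34, and without LPFoxp3+ 1 it was 0.93.

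**Figure D4:**
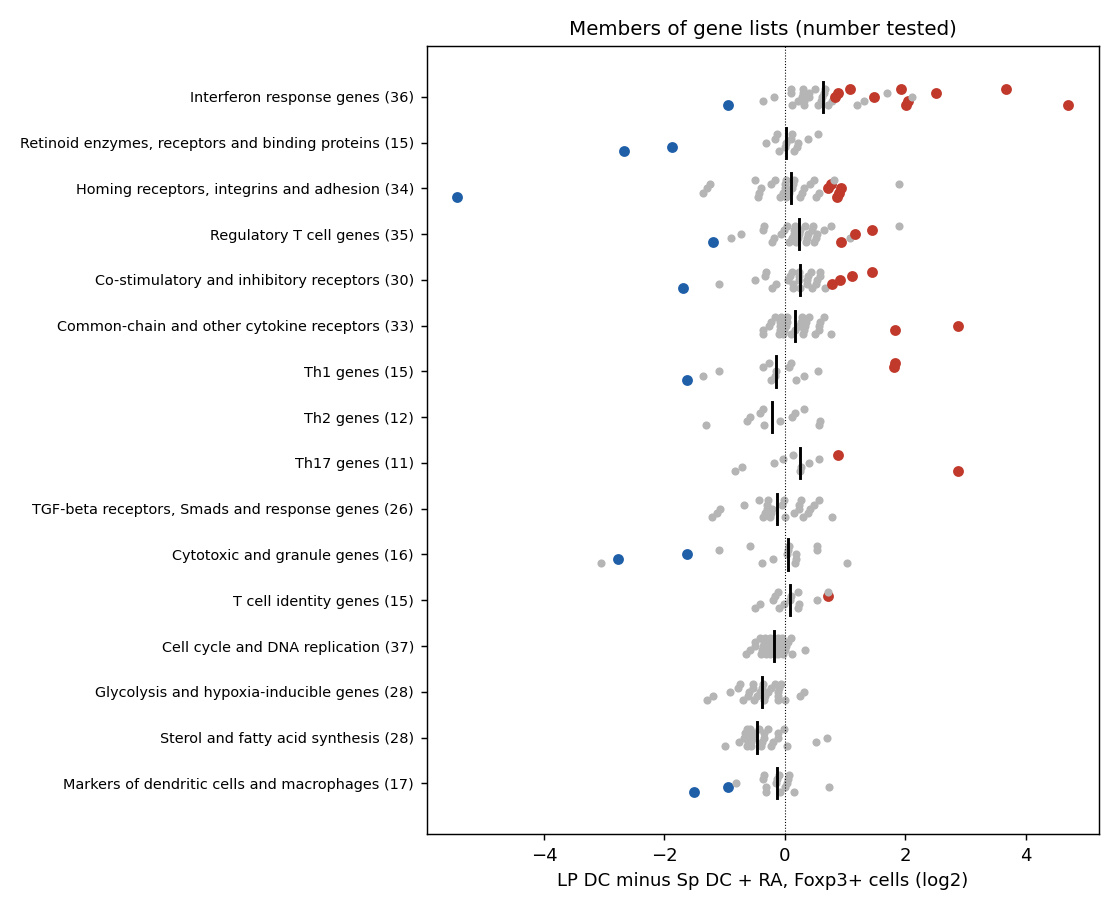
Log2 difference between LP-DC and Sp-DC plus RA cultures in Foxp3+ cells for the tested members of 16 gene lists (number tested in brackets). Red and blue points are genes called higher and lower, grey points were not called, black bars are list medians and the dotted line is the median of all genes, 0.01; the interferon list has the highest median, 0.63, among those drawn.

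Among cytokine receptors, Il6ra, the IL-6 binding chain, read 8.69 and 8.53 with LP-DC, 5.69 and 5.77 with RA, and 8.09 and 7.42 with spleen DC alone. Only the SpRA arrays were low, and the stable difference was 2.88 (SE 0.25, adjusted p = 0.000615), 7.37-fold. The other Il6ra probe set differed by 0.07, and the mean of both gave 1.47 (adjusted p = 0.00166). Il18r1, a chain of the IL-18 receptor, read 9.63 and 10.08 against 8.24 and 7.80 (difference 1.83, SE 0.26, adjusted p = 0.00871). They were the 2 called, both higher, of 33 tested cytokine receptors, where 1.11% of all tested genes were higher.

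Called lineage genes of helper cells are given by list, where 1.11% of all tested genes were higher and 0.76% lower. Of 15 Th1 genes, Il18r1 and Eomes were higher and Gzmb lower. Eomes, a T-box factor of memory and cytotoxic cells, read 8.91 and 9.58 with LP-DC, 6.80 and 8.06 with RA, and 9.74 and 9.56 with spleen DC alone (difference 1.81, SE 0.26, adjusted p = 0.00962). Tbx21, the other T-box factor, read 5.07 and 6.36 against 5.05 and 5.72 and was not called (adjusted p = 0.74). Of 11 Th17 genes, Il6ra and Batf were higher. Il17a read 6.73 and 6.65 against 7.02 and 6.72 (adjusted p = 0.704). Of 12 Th2 genes none was called, and among 24 cytokines and chemokines only Tnfsf11, which encodes RANKL, was called. It read 8.87 and 7.93 against 9.95 and 10.26 (difference -1.70, SE 0.35, adjusted p = 0.0442) and was not stable.

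Of 35 regulatory T cell genes, 3 were higher, 1 was lower and 31 were not called, and the median was 0.23. Among all tested genes 1.11% were higher and 0.76% lower. Cd83, a surface protein of activated and regulatory T cells, read 8.06 and 8.08 with LP-DC, 6.71 and 6.52 with RA, and 6.30 and 5.85 with spleen DC alone (stable difference 1.45, SE 0.15, adjusted p = 0.00189). Here the LP arrays stood above both spleen DC cultures. Ecm1, a secreted matrix protein, read 9.75 and 11.12 against 8.48 and 10.08, which overlap, although the paired difference was 1.16 (SE 0.14, adjusted p = 0.00307). Ikzf2, which encodes Helios, read 12.54 and 12.12 against 11.40 and 11.41 (difference 0.93, adjusted p = 0.0352). Fgl2, a secreted suppressor protein, was lower by 1.19 on the log2 scale (7.15 and 6.80 against 8.42 and 7.91).

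Il2ra and Ctla4, the IL-2 receptor alpha chain and an inhibitory receptor, were not called, with differences of 0.65 (interval -0.27 to 1.58) and 0.23 (interval -0.23 to 0.70). Of 26 TGF-beta receptors, Smads and response genes, 0 were called in either direction. Tgfbr2, a receptor for TGF-beta, read 10.81 and 10.94 against 10.92 and 10.94. Of 30 co-stimulatory and inhibitory receptors, Cd83, Btla, Cd200 and Fas were higher and Tnfsf11 lower, against 1.11% and 0.76% of all tested genes. Btla, an inhibitory receptor, read 10.82 and 11.91 against 9.87 and 10.62 (difference 1.12, adjusted p = 0.0382), and its neighbour Cd200 was higher by 0.91. Neither Btla nor Cd200 was stable.

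Some genes that separated the sorts in the spleen DC cultures without RA, on arrays that enter the fit but are not compared, were called here. In those arrays 31 genes, a set chosen after values were seen, were at least 2-fold higher in Foxp3+ than in Foxp3- cells in both numbered pairs, and 24 were at least 2-fold lower. The first group had a median LP minus SpRA difference of 0.65 in Foxp3+ cells and -0.21 in Foxp3- cells, with 5 called higher (Il6ra, Amigo2, Tlr1, Ecm1 and Ctsl) and 1 lower (Dhrs3). The second had medians of -0.93 and -0.01, where all tested genes had 0.01 and -0.02, with 0 called higher and 5 lower (Sytl2, Fgl2, Igsf5, Cd93 and Ctla2b). Of all tested genes 1.11% were called higher and 0.76% lower in Foxp3+ cells. In the LP cultures the first group's median step from Foxp3- to Foxp3+ was 1.86 and 1.29 in the 2 pairs, and in the SpRA culture 1.02 in the 1 pair present. The part of the sort in the results was not tested.

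Of 5 tested granzymes, proteases of cytotoxic granules, Gzmb and Gzmc were lower and 3 were not called. Among all tested genes 1.11% were higher and 0.76% lower. Gzmb, granzyme B, read 10.81 and 10.93 with LP-DC, 12.23 and 12.76 with RA, and 12.38 and 13.05 with spleen DC alone (difference -1.62, SE 0.20, adjusted p = 0.00368). In this gene LP-DC stood apart from both spleen DC cultures. Gzmc, its neighbour on chromosome 14, read 6.31 and 5.77 against 8.33 and 9.31 (difference -2.78, SE 0.39, adjusted p = 0.00871). Gzma, granzyme A, read 5.80 and 6.18 against 9.72 and 8.38 but was not called (difference -3.06, SE 0.74, adjusted p = 0.0784); on the SpFoxp3+ arrays it read 6.17 and 8.97. Of 16 cytotoxic and granule genes, 2 were lower and 0 higher, with a median of 0.04 and 9 of 16 above 0. Ctla2a and Ctla2b, inhibitors of cathepsins, were lower by 4.53-fold and 4.89-fold.

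Other genes with large differences on the lower side have varied roles. Gda, guanine deaminase, read 7.03 and 7.43 with LP-DC against 9.94 and 9.83 (difference -2.66, SE 0.15, adjusted p = 6.45e-05). Cracdl read 5.93 and 5.62 against 8.32 and 8.21. Asb2, a substrate-binding part of a ubiquitin ligase known to be induced by RA in myeloid cells, read 6.12 and 6.43 against 8.29 and 8.43 (adjusted p = 0.000123). Csn2, the milk protein beta-casein, read 5.39 and 5.61 against 7.74 and 7.62. Bex1 read 7.66 and 6.86 against 10.04 and 9.78. These 5 were stable and had levels with spleen DC alone between 4.95 and 6.86, under both SpRA arrays in each. Tmem176a and Tmem176b, neighbouring genes for cation channels, were both lower by 1.88 on the log2 scale and were stable. Ddc, aromatic amino acid decarboxylase, Hacd1, an enzyme of long-chain fatty acid synthesis, Cd93 and Plac8 were lower by 4.20-, 4.34-, 4.56- and 4.03-fold. The 4 other probe sets of Cd93 differed by -0.98, -0.25, 0.10 and -0.07.

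On the higher side Gramd3 read 10.45 and 11.55 against 8.84 and 9.48 (stable difference 1.84, SE 0.15, adjusted p = 0.000445). Scin, which severs actin filaments, read 7.50 and 9.06 against 6.24 and 6.45. It was called (difference 1.93, adjusted p = 0.00922), but not without SpRAFoxp3+ 2 (adjusted p = 0.12). Amigo2, B3gnt5 and Glcci1 were higher by 3.46-, 3.42- and 3.26-fold, and none of the 3 was stable. The other probe set of Amigo2 differed by 0.07 and that of B3gnt5 by 0.06. Efna5, an ephrin ligand, read 8.32 and 8.54 against 6.65 and 6.80 (stable difference 1.70, SE 0.17, adjusted p = 0.00149), while its other probe set differed by -0.06. Ms4a4c, a membrane protein of leukocytes named after its values were seen, read 7.07 and 9.77 against 4.83 and 7.09, a difference of 2.45 while the arrays of each culture lay about as far apart.

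Programmes of growth and metabolism gave no called gene, where 1.11% of all tested genes were higher and 0.76% lower. At such shares lists of this size hold few called genes. Of 37 cell cycle genes, 28 glycolysis and hypoxia genes, 28 sterol and fatty acid synthesis genes and 23 genes of the amino acid response, 0 were called in either direction. Their medians were -0.19, -0.38, -0.47 and -0.10 against 0.01 over all genes. Below 0 lay 31 of the 37 cell cycle genes, 26 of 28, 25 of 28 and 17 of 23 in that order. Of all 11846 tested genes, 5730 lay below 0. Early genes of T cell receptor signalling gave 1 of 36 higher, Dusp4, a phosphatase of MAP kinases, and 1 lower, Fos, a subunit of AP-1. Fos read 9.79 and 9.15 with LP-DC and 11.22 and 10.77 with RA (difference -1.53, SE 0.31, adjusted p = 0.0403). Of 24 naive and memory T cell genes S1pr1 and S100a10 were higher, of 14 housekeeping genes none was called, and of 13 metallothioneins and zinc transporters none was called. Among 13 genes known to be lower in Foxp3-expressing cells, 1 was called, Pde3b, a phosphodiesterase, which was lower by 1.30 on the log2 scale.

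T cell identity genes were all above the array median on the 4 arrays (15 of 15), and 1 of 15, Cd2, was called, higher by 0.71. Cd2 was not stable, and 1.11% of all tested genes were higher. Cd3e read 11.06 and 10.86 against 11.29 and 11.02. Markers of DC and macrophages had summed linear levels of 9326 and 11460 with LP-DC and 7430 and 10020 with RA, which overlap, with 13 and 16 of 34 above the median in LP and 16 and 13 in SpRA. Of this list, Itgax, Zbtb46 and Flt3 read 5.53 to 6.64 on these 4 arrays. H2-DMa, another member, read 8.17 and 8.97 with LP-DC and 8.23 and 9.12 with RA. Irf8 and Adgre1 of this list were lower with LP-DC (differences -0.94 and -1.51). B cell markers summed to 3285 and 3403 against 3013 and 2793, with Bank1 higher. CD8 T and NK cell markers summed to 2810 and 2619 against 3341 and 2868, with Eomes higher and Cd8a lower (5.35 and 4.68 against 6.77 and 5.93). Neither Eomes nor Cd8a was stable. Epithelial and stromal markers summed to 1002 and 1020 against 1171 and 1701, with Epcam lower (difference -1.14), and erythroid markers to 253 and 263 against 301 and 238. The part of such cells in the results was not tested, and in sorted populations fewer cells of a type and less RNA per cell cannot be told apart.

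The same contrast in Foxp3- cells of these cultures set 2 LP arrays against 1 SpRA array, in the same fit of 11 arrays. With 1 SpRA array its spread was taken from the other groups, and its array-number effect was estimated partly on the compared Foxp3+ arrays, so the calls are not independent of those above. There 22 genes were higher (0.186%) and 40 lower (0.338%; 0 in all without the array number, smallest adjusted p = 0.0676, 736 at unadjusted p under 0.05), 46 of the 62 called the same way in Foxp3+ cells. Of the 132 genes higher in Foxp3+ cells 111 had the same sign in Foxp3- cells and 16 were called, and of the 90 lower genes 90 and 30. Without the array number, where the difference rests on the 3 Foxp3- arrays alone, 100 of the 132 were above 0, as were 41.4% of all tested genes, and 88 of the 90 were below 0, as were 58.6%. The cells came from the same cultures. With the array number, Ccr9 differed by -4.25 in Foxp3- cells (adjusted p = 0.00833), Lztfl1 by -2.42 (adjusted p = 0.000907), Ifitm1 by 2.55 (adjusted p = 0.00833) and Gzmc by -4.01 (adjusted p = 0.00833). On the arrays themselves Ccr9 read 5.21 and 4.02 with LP-DC and 8.46 with RA, and Cyp26b1 read 6.63 and 6.54 against 8.09. The test of the difference between the sorts called 0 genes (limma, smallest adjusted p = 0.102, 401 genes at unadjusted p under 0.05; without the array number 0 and 135). The lowest adjusted p of that test, 0.102, included Cd83, Efna5 and Ecm1. Cd83 differed by 1.45 in Foxp3+ cells and -0.41 in Foxp3- cells, where it read 5.91 and 5.36 with LP-DC and 5.91 with RA.

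**Figure D5:**
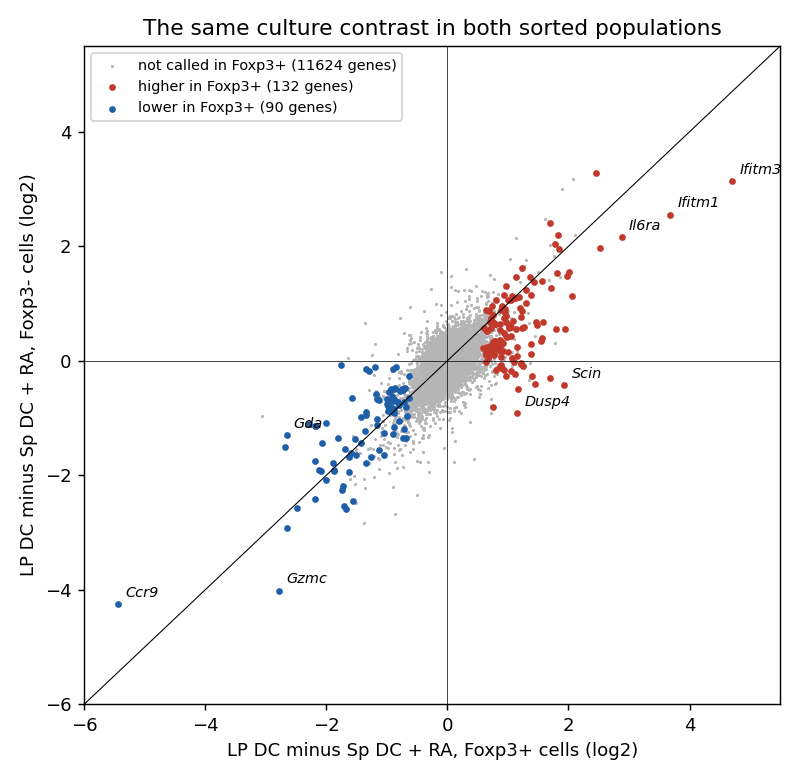
Each point is 1 of 11846 genes, with the log2 difference between LP-DC and Sp-DC plus RA cultures in Foxp3+ cells on the x axis and in Foxp3- cells on the y axis. All 90 genes called lower in Foxp3+ cells (blue) lie below 0 on the y axis. Of the 132 called higher (red), 111 lie above 0 on that axis, and Scin and Dusp4 are among those that do not.

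Levels with spleen DC and no RA are set beside the differences. For 59 of the 90 lower genes (65.6%) the mean of the SpFoxp3+ arrays was nearer to LP than to SpRA, and for 31 it was nearer to SpRA. For 57 of the 132 higher genes (43.2%) it was nearer to LP, and for 75 nearer to SpRA. Ccr9, Cyp26b1, Ifitm1, Ifitm3 and Il6ra are of the kind nearer to LP. Cd83, Gzmb, Scin and Amigo2 are of the kind nearer to SpRA.

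Some called genes were neighbours. In the order of protein-coding genes of RefSeq (GRCm38.p6), where 213 called genes had a place, 15 pairs of adjacent genes were both called, 0.211% of the 7110 adjacent pairs with both genes tested. Both genes of a pair had the same sign in 15 of the 15, and in 52.2% of the 7110. They include Igtp and Irgm2 on chromosome 11, Gbp7 and Gbp3 on chromosome 3, Btla and Cd200 on chromosome 16, Tubb2a and Tubb2b on chromosome 13, and Ptpn14 and Smyd2 on chromosome 1. Several of the pairs are copies in a gene family, whose probe sets may share sequence. Lztfl1 and Ccr9 are not copies of each other.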

How the data were processed

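RNA of the sorted cells was amplified and hybridised to Affymetrix M430v2 arrays, per the labels' protocols. The deposited values are linear intensities for 45101 probe sets on 17 arrays, made by the authors with RMA in GenePattern, per the series' design text. The normalization set of arrays was not given in the sources used here. All analysis was on the log2 scale. Of the probe sets, 34958 carried 1 gene symbol, 932 several and 9211 none in the platform annotation; 1 probe set per gene was kept, and genes above the array median on at least 2 of the 11 co-culture arrays were tested. limma 3.58.1 in R 4.3.3 (lmFit, eBayes) was fitted to those 11 arrays, with a coefficient per group and the array number as a block, and p-values were adjusted by Benjamini-Hochberg over all tested genes; the procedure was tested on simulated data. The number was used as a block because deviations of same-numbered arrays from their group means correlated at 0.45 to 0.75 over 10 pairs of groups (0.57 for LPFoxp3+ with SpRAFoxp3+), and scan names in the labels fall into a run for each number. The SpRAFoxp3- group has 1 array here; another was not analysed here. Named genes were the 15 largest differences in each direction among called genes without overlap, up to 4 called members of each of 28 lists, 32 genes always named and up to 10 genes differing between the sorts. Other genes were named after their values were seen. Genes, lists and comparisons were chosen with earlier results of these data known. Alternatives were other scalings, filters, probe set rules, eBayes settings and sample sets, no block, and each array left out; leaving out each SpFoxp3+ array was added after seeing the data. The number of arrays limits the precision.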

Additional observations from a re-analysis of the deposited data

How the results depend on the processing

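Without the replicate block the count of called genes in Foxp3+ cells went from 222 to 11, and in Foxp3- cells from 62 to 0. Leaving out 1 compared array at a time gave 45 to 198 in Foxp3+ cells, 15 (without LPFoxp3- 2) to 93 (without LPFoxp3- 1) in Foxp3- cells, and 0 to 1 for the difference between the sorts (1 without LPFoxp3+ 1). In Foxp3- cells the mean of all probe sets gave 38 and all 17 arrays in 1 fit gave 120. Other alternatives gave 178 to 311 in Foxp3+ cells; without either SpFoxp3+ array, chosen after seeing the data, the count was 255, and 79 in Foxp3- cells. Higher genes made up 59.5% of the calls and 49.5% without LPFoxp3+ 1, 30.4% without SpRAFoxp3+ 1 and 36.4% without the block. Gpr15 was called only with the compared groups alone (adjusted p = 0.000248). Many named genes were chosen among those without overlap, and the fits without the block and with other eBayes settings leave the difference itself unchanged. Direction was thus partly fixed beforehand. No named gene that was called changed direction under any alternative. Genes not called did: Tgfb1 was 0.0027 after quantile normalization, and with 1 compared array left out at a time Tgfb1 ran from -0.23 to 0.19, Ifng from -0.67 to 0.80, Rarb from -0.49 to 0.24, Itgae from -0.30 to 1.25, Nrp1 from -0.01 to 1.04, Tbx21 from -0.11 to 0.75, Itgb7 from -0.16 to 0.31, Nrip1 from -0.418 to 0.0824, Il10 from -0.88 to 0.20 and Cd4 from -0.229 to 0.0479. The cause was not tested. Foxp3- cells with their groups alone, or without the SpRAFoxp3- array, could not be fitted.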
